A study of Mus musculus with 13 samples.

Results

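The difference between genotypes in the response to transverse aortic constriction (TAC), a narrowing of the aorta that loads the left ventricle (LV), was examined over all 13 arrays of the series, grouped by title. For each gene the TAC effect was taken in arrays labelled LXRα-Tg, for mice overexpressing LXRα in the heart (LXRα-Tg TAC minus LXRα-Tg sham). It was set against that in arrays labelled wild-type (Wt TAC minus Wt sham) in 1 fit of the 4 group means. The first minus the other is called the difference, and all effects are on the log2 scale. The transcript of LXRα went against the genotype label on 5 of the 13 arrays, which are given below. A gene was counted as an opposite responder when both TAC effects had a limma p under 0.05 before adjustment and opposite signs. Of 7837 genes tested, 81 (1.03%) were opposite responders. Of these, 60 were higher after TAC in Wt and lower after TAC in LXRα-Tg, and 21 were lower in Wt and higher in LXRα-Tg.

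LV RNA came from male mice of 4 months, labelled C57BL/6, after 5 weeks of TAC or sham surgery, and each RNA was read as 1 array. The labels gave 3 arrays as Wt sham, 4 as Wt TAC, 3 as LXRα-Tg sham and 3 as LXRα-Tg TAC. In the LXRα-Tg line the αMHC promoter, which is active in cardiomyocytes, drives murine Nr1h3, the gene of LXRα. Founders of the FVB strain had been crossed to C57BL/6 over at least 3 generations, and non-transgenic littermates served as Wt. The labels do not tell whether every array comes from its own mouse, and p-values describe the spread among these arrays, which may be technical.

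In a heart under pressure overload, cardiomyocytes grow and take up genes of the fetal heart again, such as those of natriuretic peptides, β-myosin and skeletal actin. Fibroblasts of the heart lay down collagens and other matrix proteins, and enzymes of fatty acid (FA) oxidation often decline. LXRα is a nuclear receptor for oxidised cholesterol that binds DNA together with a retinoid X receptor and is known for inducing genes of cholesterol export and lipid synthesis.

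Nr1h3 did not follow the genotype labels on 5 of the 13 arrays. A high signal, from 25187 to 31975, was read on 5 arrays, and a low one, from 163 to 397, on 8. Among the arrays with the Wt label, sham replicate 3 and TAC replicate 2 were high. Among those with the LXRα-Tg label, replicates 1 and 2 of sham and replicate 3 of TAC were low. Thus every group held at least 1 such array, and the groups are those of the labels throughout. The Y-linked gene Eif2s3y lay below detection on 2 arrays, Wt sham replicate 1 and LXRα-Tg TAC replicate 3, although the labels give male mice throughout. Results are therefore also given without these arrays, choices made after the values were seen. Of 19 cardiomyocyte markers on the array, 18 or 19 were detected on each array.

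By the test of the difference itself, 0 genes (0%) passed limma's adjusted p of 0.05, and the lowest adjusted p was 0.185, shared by 50 genes. Before adjustment, 803 genes (10.2%) had a p under 0.05, of which 329 (4.20%) were more positive in LXRα-Tg and 474 (6.05%) more negative. Opposite responders higher in Wt and lower in LXRα-Tg made up 0.766% of all genes, and those of the other direction 0.268%. Only 3 genes (0.0383%) were higher and 9 (0.115%) lower after TAC in both genotypes at the same threshold. Of all genes, 4467 (57.0%) had TAC effects of opposite sign at any size. The median difference over all genes was −0.01. Taken alone, TAC in Wt had 4.75% of genes higher and 2.13% lower before adjustment, TAC in LXRα-Tg 3.10% and 3.94%, and neither had a gene past limma's adjusted p. The TAC effects of Wt and LXRα-Tg share no arrays. Their tests share 1 estimate of spread per gene, and all arrays were normalized together, so they are not independent.

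The number of calls depended on how the arrays were scaled to each other. When the medians of all probes were made equal in place of quantile normalization, an alternative chosen after the data were seen, the median difference over all genes moved to −0.37. Then 46 genes were called by limma, all more negative in LXRα-Tg, and 32 of them were among the 81. The opposite responders then numbered 217 and 0 by direction. With the medians of the detected probes made equal they numbered 43 and 32, so that 57.3% were higher in Wt against 74.1% by quantile normalization. The same arrays had chosen the 81 genes, so agreement in sign is in part built in. Under each of these scalings the difference kept its sign in 81 of 81 genes. Relative to the median of all genes, the 60 genes had a median difference of −1.19 and the 21 genes of 0.87 under both.

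**Figure D1:**
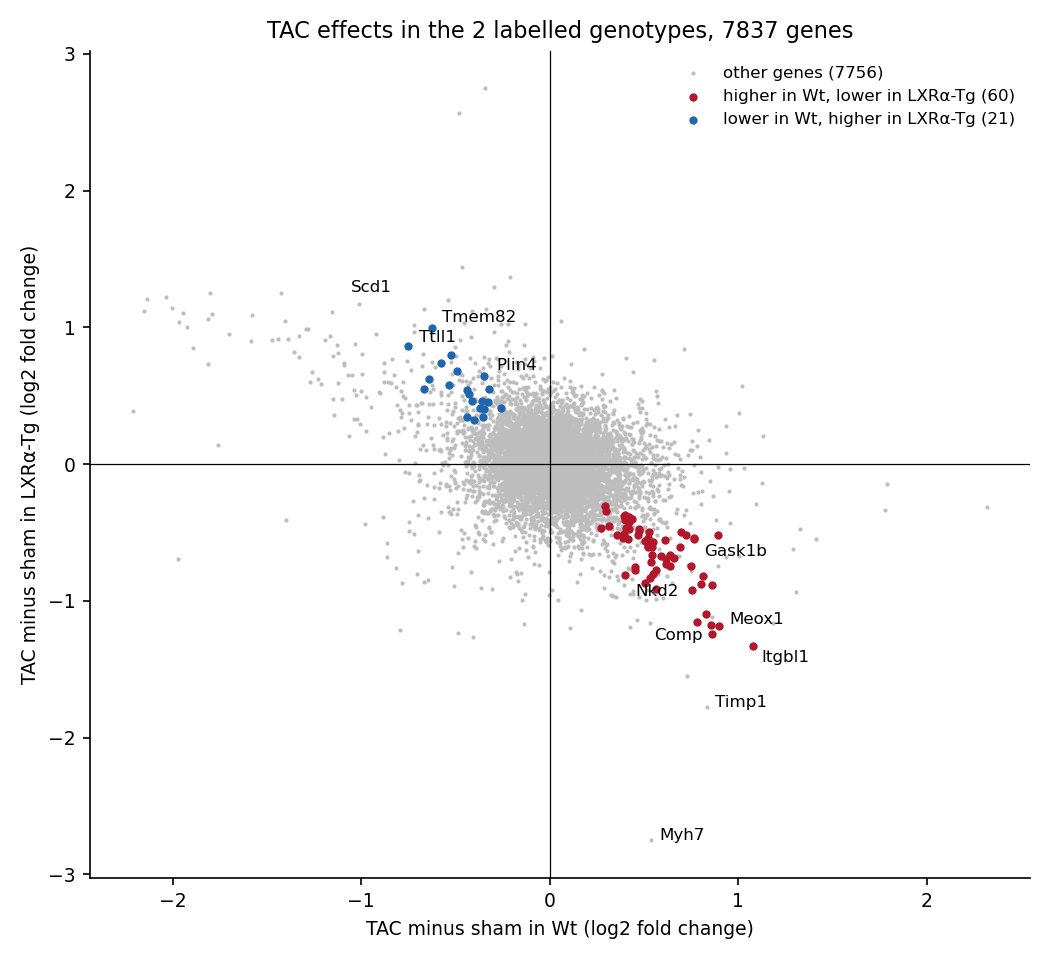
The TAC effect in LXRα-Tg (y axis, log2) against the TAC effect in Wt (x axis, log2) for 7837 genes, each point 1 gene. The 60 red genes lie at the lower right, Itgbl1 farthest out with 1.08 and −1.33, and the 21 blue genes lie at the upper left, while Timp1 and Myh7 missed the rule in Wt.

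Itgbl1 and Comp had the widest differences of the 60 genes higher in Wt and lower in LXRα-Tg. Itgbl1, a secreted protein related to integrin β chains, stood at 5.94, 7.11 and 6.78 on the Wt sham arrays and at 7.17, 7.75, 7.23 and 8.61 on those of Wt TAC. In LXRα-Tg it stood at 8.83, 8.74 and 8.50 on the sham arrays and at 7.0, 7.70 and 7.38 on those of TAC. Every Wt TAC array lay above every Wt sham array, and every LXRα-Tg TAC array below every LXRα-Tg sham array. The TAC effects were 1.08 (standard error 0.34) and −1.33 (0.37), a difference of −2.41 with a 95% interval of −3.49 to −1.32 (limma adjusted p = 0.185). Comp, the cartilage oligomeric matrix protein, stood at 4.94, 5.45 and 5.85 in Wt sham and at 5.88, 6.34, 6.15 and 6.72 in Wt TAC. It stood at 7.81, 8.31 and 7.55 in LXRα-Tg sham and at 6.03, 6.59 and 7.34 in LXRα-Tg TAC, with no overlap of TAC and sham in either genotype. Its difference was −2.10 (standard error 0.46, limma adjusted p = 0.185).

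The microfibril protein Mfap4 had effects of 0.86 in Wt and −1.17 in LXRα-Tg, and Svep1, a large adhesion protein of the matrix, 0.83 and −1.09. Fstl1, a glycoprotein secreted by stromal cells, had 0.66 and −0.69, and the proteoglycan biglycan, Bgn, 0.62 and −0.70. In these 4 genes the TAC and sham arrays overlapped in at least 1 genotype. Fbln2, a fibulin that binds elastic fibres, had 0.72 and −0.52 without overlap, and its 2 other probes gave 0.37 and −0.39, and 0.67 and −0.33. Sparc, which binds collagen, had 0.55 and −0.57, and Col16a1, a collagen associated with fibrils, 0.56 and −0.78. Mgp, which inhibits calcification of the matrix, had 0.51 and −0.87, and Ctsk, a protease that cleaves collagen, 0.53 and −0.83. In Sparc the Wt TAC array of replicate 1, at 11.04, lay among the Wt sham arrays at 10.97 to 11.16, and the other 3 lay at 11.76 to 11.86.

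Regulators and signalling proteins formed another part of the 60. Gask1b, a kinase-like protein of the Golgi, had the lowest p of all genes for the difference. It stood at 8.21, 8.40 and 8.46 in Wt sham, at 9.11, 9.34, 8.99 and 9.05 in Wt TAC, at 9.60, 9.54 and 9.51 in LXRα-Tg sham and at 8.99, 9.31 and 8.74 in LXRα-Tg TAC. The Wt TAC and LXRα-Tg TAC arrays thus lay in 1 range between the sham groups. The effects were 0.77 (standard error 0.14) and −0.54 (0.15), and the difference was −1.30 with a 95% interval of −1.76 to −0.85 (limma adjusted p = 0.185). Nkd2, which binds Dishevelled and dampens Wnt signals, stood at 4.68, 4.84 and 4.65 in Wt sham and at 5.20, 5.64, 5.44 and 5.64 in Wt TAC. In LXRα-Tg it stood at 6.21, 6.36 and 5.93 in sham and at 5.01, 5.84 and 4.90 in TAC, and it was detected on 8 of the 13 arrays, of which 0 were Wt sham. Its fitted difference was −1.68 (standard error 0.31), and against the lowest detected level Wt TAC was at least 1.23-fold higher than Wt sham. Without LXRα-Tg TAC replicate 2, Nkd2 and Gask1b were the 2 genes called for the difference (limma adjusted p = 0.0163 and 0.0341), and with that array 0 were.

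Meox1, a homeobox transcription factor, had 0.90 in Wt and −1.19 in LXRα-Tg, and its Wt TAC arrays ran from 7.68 to 9.52 against 7.23 to 7.78 in Wt sham, so that they overlapped. Hebp1, which binds heme, had 0.86 and −0.88, and the membrane proteins Emp1 and Endod1 had 0.80 and −0.88, and 0.59 and −0.67. Among receptors, Cx3cr1, the fractalkine receptor of monocytes and macrophages, had 0.64 and −0.75, the guidance receptor Unc5b 0.47 and −0.52 and the thrombin receptor F2r 0.40 and −0.37. In these 3 genes TAC and sham arrays did not overlap in either genotype. Cd33, a lectin of myeloid cells, was detected on 6 arrays, 3 of Wt TAC and 3 of LXRα-Tg sham. Against the lowest detected level it was at least 1.03-fold higher in Wt TAC than in Wt sham and at least 1.14-fold higher in LXRα-Tg sham than in LXRα-Tg TAC. Robo1, another guidance receptor, was detected on 9 arrays, of which 0 were Wt sham, and was at least 1.38-fold higher in Wt TAC, with an effect of −0.50 in LXRα-Tg. Ccl21a and Ccl21b, chemokines that draw lymphocytes and dendritic cells, had 0.64 and −0.66, and 0.75 and −0.75. Their sequences are nearly the same, so their probes cannot be assigned to 1 copy with certainty.

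Genes of cell division were also among the 60, though no list of such genes was counted. Cdk1, the kinase that starts mitosis, was detected on 3 arrays, all of them LXRα-Tg sham, so that it passed the filter through that group alone and no Wt effect was measured. Cdc20, an activator of the anaphase complex, had 0.53 and −0.50, and its other probe 0.25 and −0.20. It was detected on 10 arrays, of which 1 was Wt sham and 2 were LXRα-Tg TAC. Mad2l1, of the spindle checkpoint, had 0.27 and −0.47. Dnmt1, which copies DNA methylation after replication, had 0.29 and −0.31, the smallest difference of the 60 at −0.60. The histone gene H2ac12 had 0.82 and −0.82. Chil1, a chitinase-like secreted protein, was detected on 6 arrays, of which 0 were Wt sham, and its effect in LXRα-Tg was −1.16. Nrap, which anchors actin at the intercalated disc, was the 1 gene of the hypertrophy list among the 60, with 0.47 and −0.49.

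The 21 genes lower in Wt and higher in LXRα-Tg after TAC had smaller effects. Plin4, which coats lipid droplets, stood at 10.91, 11.02 and 10.98 in Wt sham and at 10.79, 10.63, 10.50 and 10.58 in Wt TAC. In LXRα-Tg it stood at 10.03, 9.98 and 10.45 in sham and at 10.70, 10.73 and 10.96 in TAC. The groups of each genotype did not overlap, and the difference was 0.99 with a 95% interval of 0.56 to 1.43 (limma adjusted p = 0.185). Ncoa1, a coactivator of nuclear receptors, stood at 7.17, 7.14 and 7.14 in Wt sham, at 6.56, 6.92, 6.68 and 6.69 in Wt TAC, at 6.78, 6.44 and 6.85 in LXRα-Tg sham and at 7.07, 7.21 and 7.41 in LXRα-Tg TAC. Again no arrays overlapped, and the difference was 0.98 (standard error 0.20). Rxrg, a retinoid X receptor and so of the family that pairs with LXRα, had −0.35 in Wt and 0.40 in LXRα-Tg without overlap.

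Mitochondrial and amino acid enzymes made up part of the 21. Prodh, the first enzyme of proline breakdown, stood at 7.05, 6.60 and 6.88 in Wt sham and at 5.64, 6.18, 6.64 and 6.36 in Wt TAC, so that 1 TAC array lay just above 1 sham array. In LXRα-Tg it stood at 5.98, 5.78 and 6.19 in sham and at 6.38, 6.43 and 7.01 in TAC, and the difference was 1.26 (standard error 0.34). Aldh18a1, the first enzyme of proline synthesis, was among the 60 of the other direction, with 0.41 in Wt and −0.46 in LXRα-Tg. Gcdh, which breaks down lysine and tryptophan products, had −0.43 and 0.52, Aldh5a1, of the breakdown of the transmitter GABA, −0.33 and 0.46, and Slc25a34, a carrier of the mitochondrial membrane, −0.36 and 0.46. Fn3k, a kinase that repairs sugar-bound proteins, had −0.37 and 0.41. In these 4 genes TAC and sham arrays did not overlap in either genotype.

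Tmem82, a membrane protein, had the largest difference of the 21, at 1.62 (standard error 0.39). Its levels were 7.99, 7.65 and 7.46 in Wt sham, 7.28, 6.98, 7.19 and 6.85 in Wt TAC, 5.92, 7.04 and 6.91 in LXRα-Tg sham and 7.47, 7.30 and 8.08 in LXRα-Tg TAC. The Wt groups did not overlap, nor did those of LXRα-Tg. Ttll1, a tubulin polyglutamylase, had −0.75 and 0.86, and its other probe −0.88 and 0.69. Stard10, a carrier of phospholipids, had −0.52 and 0.80, the RNA-binding protein Ybx2 −0.67 and 0.55, and Ung, which removes uracil from DNA, −0.53 and 0.58. Selenbp2, which binds selenium and has a nearly identical copy, had −0.32 and 0.55. The phosphatase subunit Ppp2r5d had −0.40 and 0.32 and the tubulin-binding protein Tppp −0.35 and 0.35.

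**Figure D2:**
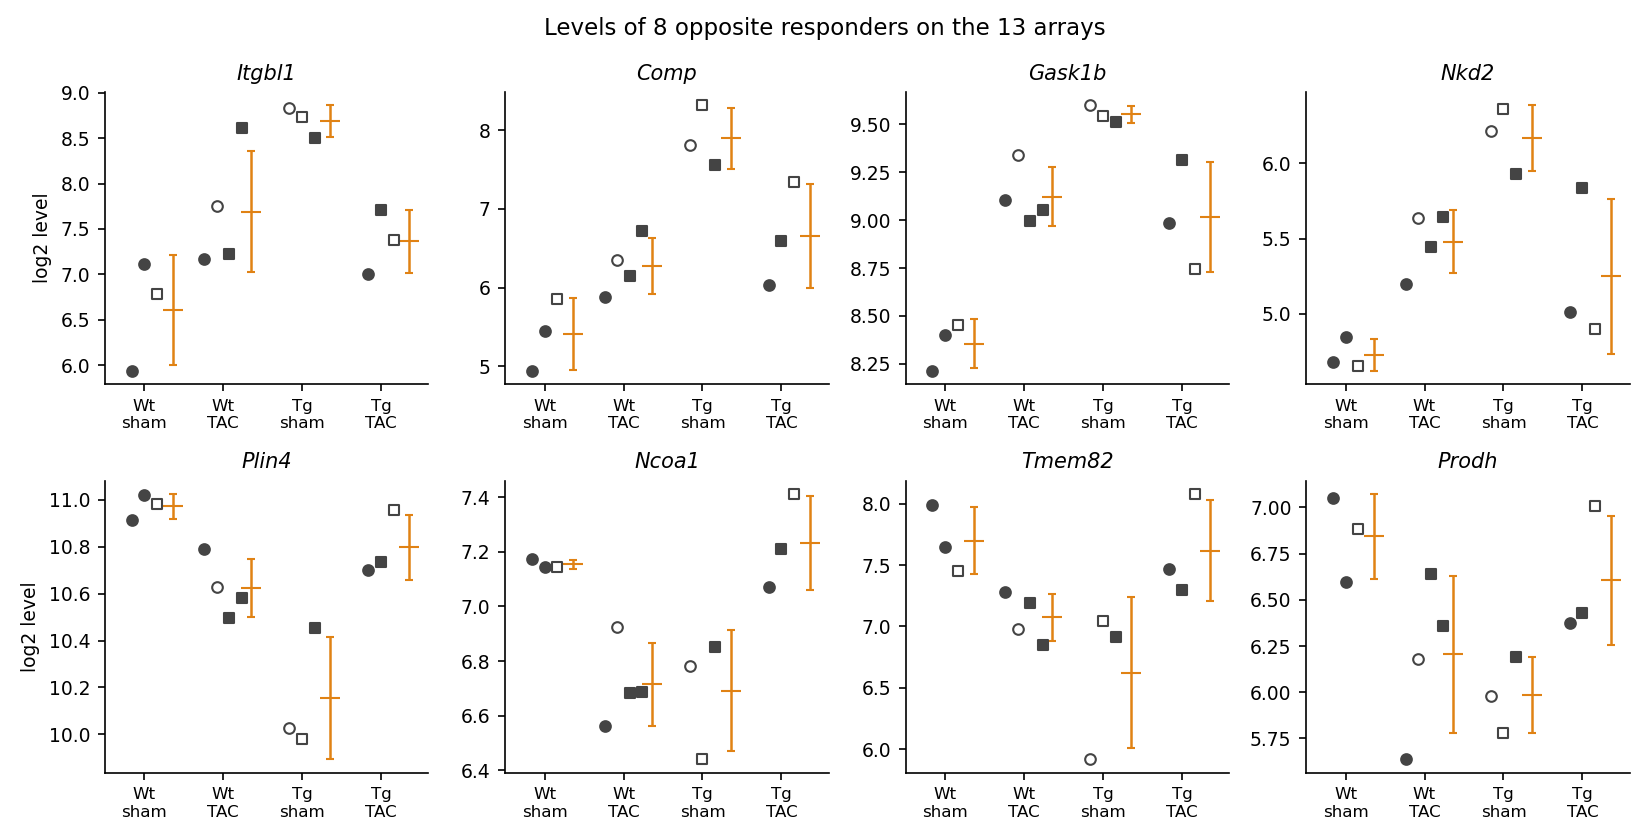
Log2 level (y axis, a range of its own in each panel) of 8 opposite responders on the 13 arrays, by group (x axis; Tg stands for LXRα-Tg). Circles are arrays of slide 1 and squares of slide 2, open symbols are the 5 arrays whose Nr1h3 level went against the label, and the bars give mean ± SD. By group means, Itgbl1, Comp, Gask1b and Nkd2 were lowest in Wt sham and highest in LXRα-Tg sham, and Plin4, Tmem82 and Prodh the reverse.

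Over the whole of each direction, the 2 sham groups lay apart and the TAC groups between them. The mean of the 60 genes, each centred on its own mean, was −0.65, −0.45 and −0.45 on the Wt sham arrays and 0.46, 0.66 and 0.53 on those of LXRα-Tg sham. On the Wt TAC arrays it was −0.17, 0.18, 0.04 and 0.17, and on those of LXRα-Tg TAC −0.23, 0.02 and −0.13, so that the TAC groups overlapped. The mean of the 21 genes was 0.43, 0.29 and 0.33 in Wt sham, −0.07, −0.16, −0.05 and −0.18 in Wt TAC, −0.43, −0.42 and −0.27 in LXRα-Tg sham and 0.21, 0.09 and 0.25 in LXRα-Tg TAC. Here the TAC groups did not overlap. The rule chose the genes on these arrays, so the order of the groups is a description.

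**Figure D3:**
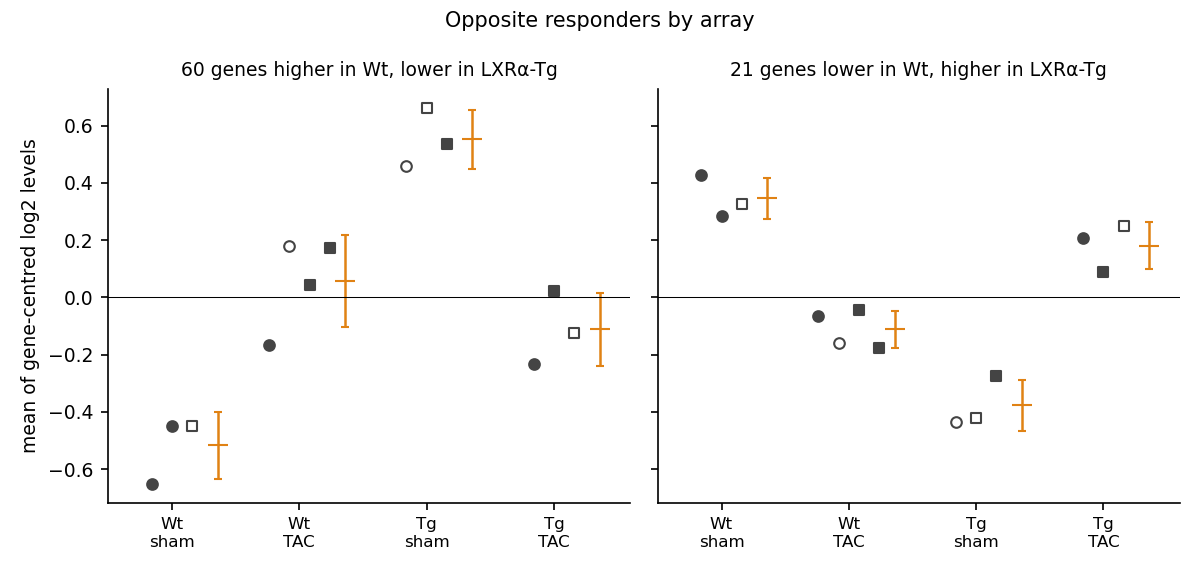
Mean over the 60 genes (left) and the 21 genes (right) of log2 levels centred per gene (y axis) on each array, by group (x axis; Tg stands for LXRα-Tg). Circles are slide 1, squares slide 2, open symbols the 5 arrays with Nr1h3 against the label, and bars mean ± SD; in the left panel Wt sham lies lowest (−0.65 to −0.45) and LXRα-Tg sham highest (0.46 to 0.66).

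The same difference can be read as a gap between genotypes in sham and in TAC hearts, which share arrays with it. In the 60 genes the median gap of LXRα-Tg over Wt was 1.03 in sham and −0.15 in TAC, and the sham gap was the larger in 55. The sham gap passed limma's adjusted test in 39 of the 60, where 1.58% of all genes did, and the TAC gap in 0 (0% of all genes). In the 21 genes the median gap was −0.68 in sham and 0.24 in TAC, the sham gap was the larger in 18, and it passed in 6. A gene enters either list more easily when its sham groups lie apart, so these counts are a description. Comp had the widest sham gap of the 60 at 2.48 and a TAC gap of 0.38, and Meox1 had 2.31 and 0.23. The reverse was seen in Washc3, of the complex that shapes actin on endosomes, with 0.42 in sham and −0.80 in TAC, and in Pgap2, of the remodelling of lipid anchors, with 0.22 and −0.60. Washc3 was also measured by 2 other probes, of which 1 gave a difference of 0.40 and the other −0.57. Their TAC effects in Wt were −0.05 and −0.10, against the direction of the 60. Pgap2 also had 2 other probes. Of these, 1 had TAC effects of −0.19 in Wt and −0.12 in LXRα-Tg, a difference of 0.07, and the other 0.22 and −0.46. Among the 21, Ppp2r5d had a gap of −0.25 in sham and of 0.48 in TAC.

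**Figure D4:**
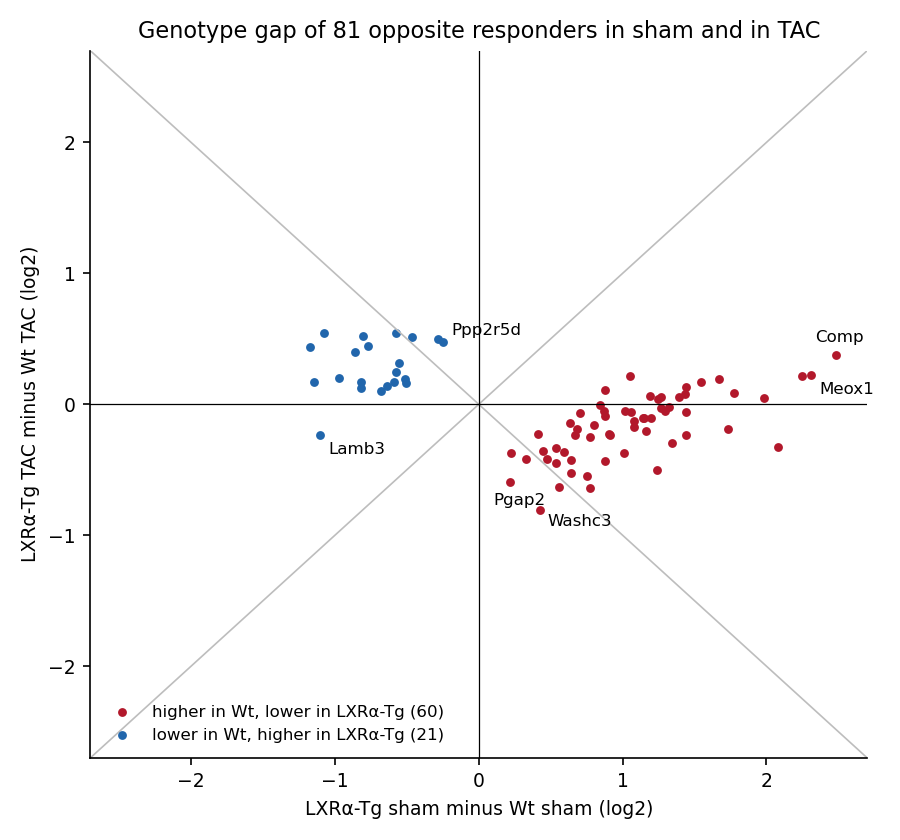
LXRα-Tg minus Wt in TAC (y axis, log2) against LXRα-Tg minus Wt in sham (x axis, log2) for the 81 opposite responders, with grey diagonals where both gaps are of equal size. Points spread along the x axis, from −1.17 to −0.25 for the 21 genes and from 0.22 to 2.48 for the 60, and less along the y axis.

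Of the 60 genes 43 were detected on all arrays, and of the 21 genes 19. In 10 of the 60 and 1 of the 21, at least 1 group had no array on which the gene was detected, so that an effect against that group is at most bounded. The bound lay below 1-fold for Mblac1 (0.967 in Wt and 0.993 in LXRα-Tg) and for Stoml1 in Wt (0.926). It thus gave no direction there, and in Wt it was only 1.006-fold for Chil1 and 1.009-fold for Ackr4. Where a gene had other detected probes, these mostly gave the same signs. Of the 60 genes, 13 had 18 other probes, of which 14 had both effects and 16 the difference in the same direction. Of the 21, 6 had 8 other probes, all with both effects in the same direction. The probes read the same RNA, so they bear on the probe and not on the spread between hearts. Without overlap of TAC and sham arrays in either genotype were 23 of the 60, of which 14 were detected on all arrays, and 14 of the 21, of which 13 were. Over all genes, 42 (0.536%) and 35 (0.447%) showed such a pattern. Just inside the rule lay H2ac12 with a p of 0.0499 in LXRα-Tg and Cdk1 with 0.0493 in Wt, where it was not detected, and just outside lay Lrp11 with 0.0503 and Col15a1 with 0.0506 in Wt, by limma before adjustment.

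Of 23 measured hypertrophy and fetal genes, 1 met the rule. Myh7, the fetal β-myosin, stood at 9.81, 9.26 and 7.28 in LXRα-Tg sham and at 5.76, 6.50 and 5.84 in LXRα-Tg TAC, an effect of −2.75 without overlap. In Wt it stood at 5.90, 6.25 and 5.76 in sham and at 6.51, 5.70, 5.92 and 7.88 in TAC, an effect of 0.54 that rests on replicate 4. The difference was −3.29 (standard error 0.83, limma adjusted p = 0.210). Without the 5 arrays whose Nr1h3 went against the label it was −1.87 (0.86). Timp1, an inhibitor of matrix proteases, had 0.83 in Wt, just short of the threshold, and −1.78 in LXRα-Tg, with no overlap in either genotype and a difference of −2.61 (standard error 0.57, adjusted p = 0.185).

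Skeletal actin, Acta1, had 1.19 in Wt and −1.16 in LXRα-Tg, the calcineurin regulator Rcan1 0.42 and −1.19, the growth factor Ccn2 0.57 and −0.99, and the collagen Col1a1 0.58 and −0.62. The natriuretic peptides Nppa and Nppb had differences of −0.88 (standard error 0.69) and −0.86 (0.80), and neither passed limma's p of 0.05 before adjustment. Myh6, the adult myosin, had −0.01 in Wt and 0.16 in LXRα-Tg, and its other probe had −0.62 and 0.03. Scd1, a desaturase that LXR induces, had −1.01 in Wt and 1.17 in LXRα-Tg, a difference of 2.18 (standard error 0.70, limma adjusted p = 0.319). Its Wt TAC arrays lay at 7.37, 9.02, 7.09 and 8.38 and overlapped the Wt sham arrays at 9.44, 8.11 and 9.38. The coactivator Ppargc1a had a difference of 0.62 (standard error 0.46), the glucose transporters Slc2a1 and Slc2a4 0.32 (0.35) and 0.22 (0.22), and Pdk4, which holds back pyruvate oxidation, 1.26 (0.67). Ptpn6, a phosphatase of blood cells, had 0.14 in Wt and −0.86 in LXRα-Tg, with the lowest p for the difference among the genes outside the 81 (0.000201 before adjustment by limma). Nr1h3 itself had a difference of 3.05 (standard error 3.46), with high and low arrays in all 4 groups.

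Of 31 measured collagens and matrix proteins, 16 were more negative in LXRα-Tg at an unadjusted limma p under 0.05 and 0 more positive, where 6.05% of all genes were more negative. The list held 5 of the 60 genes, which are Bgn, Col16a1, Comp, Fbln2 and Mfap4. Its median TAC effect was 0.31 in Wt and −0.39 in LXRα-Tg, and its median difference −0.72. Mfap5, another microfibril protein, had a difference of −1.69. Of 13 matrix proteases and inhibitors, 5 were more negative, with a median of −0.48, Mmp23 at −0.996 and the gelatinase Mmp2 at −0.80. Of 17 matricellular and TGF-β genes, 7 were more negative, with a median of −0.56, the activin subunit Inhba at −0.99 and the ligand Tgfb3 at −0.81. In the folding and crosslinking of collagen, 6 of 18 were more negative, with a median of −0.21 and the crosslinking oxidase Loxl1 at −1.03. Of 23 hypertrophy and fetal genes, 10 were more negative and 1 more positive, with a median of −0.88, Mybpc2, a myosin-binding protein of skeletal muscle, at −1.68 and Fhl1, a LIM protein of the sarcomere, at −1.10. Without the 5 arrays whose Nr1h3 went against the label, the median of the hypertrophy list was −0.50 and that of the matrix list −0.66. In all, 8 of the 60 opposite responders belonged to these 5 lists, of 13 to 31 measured genes each, and 47 to none of the 31 lists. Of all genes, 0.766% were among the 60. The lists were chosen with earlier results of these data known, so these counts are a description.

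By quantile normalization, metabolic lists had median differences above 0. They held 0 of the 21 opposite responders, of which 19 were on none of the 31 lists, among them Prodh, Gcdh and Aldh5a1. The 21 are 0.268% of all genes, a share at which lists of 14 to 68 genes may well hold 0. Of 31 genes of FA uptake and oxidation, 6 were more positive in LXRα-Tg at an unadjusted limma p under 0.05 and 0 more negative, where 4.20% of all genes were more positive. The median was 0.26, with the FA transporter Slc27a1 at 0.90 and Mlycd, which breaks down malonyl-CoA, at 0.87. Among 18 enzymes that degrade branched-chain amino acids, 5 were more positive, with a median of 0.44, Bcat2 at 0.70 and Ivd at 0.68. The TCA cycle had 2 of 17 more positive and a median of 0.31, and the respiratory chain 4 of 68 and 0.10, with the complex I subunit Ndufb10 at 1.80. LXR target genes had 3 of 15 more positive, a median TAC effect of −0.17 in Wt and 0.40 in LXRα-Tg, and a median difference of 0.37. Lpcat3, an LXR target that remodels phospholipids, had −0.26 in Wt and 0.53 in LXRα-Tg, without overlap in either genotype. When the medians of all probes were made equal, the medians of FA oxidation, the TCA cycle and LXR targets were 0.012, 0.0018 and 0.0065, and 0.38, 0.37 and 0.37 above that of all genes. The respiratory chain and glycolysis then turned to −0.11 and −0.09, and glutathione metabolism from 0.06 to −0.32, against −0.37 for all genes. Cholesterol synthesis and uptake had 0.33 by quantile normalization and −0.04 without the 5 arrays whose Nr1h3 went against the label, and LXR targets had 0.17 without them. The LXR list varied both with Nr1h3 and with liver transcripts, and the part of either was not tested. Its mean level, centred per gene, ran from 0.13 to 0.57 on the 5 arrays with high Nr1h3. On those with low Nr1h3 it ran from −0.62 to 0.19. The highest levels were on LXRα-Tg TAC replicate 1 (0.57, liver markers 1.82) and Wt sham replicate 3 (0.55, liver 2.25), both with high Nr1h3. The lowest was on LXRα-Tg sham replicate 1 (−0.62, liver −1.32), with low Nr1h3. Wt TAC replicate 4, also low in Nr1h3, had −0.18 at a liver level of 0.895. Without LXRα-Tg TAC replicate 1 the median difference of the list was 0.47, and without Wt sham replicate 3 it was 0.42.

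**Figure D5:**
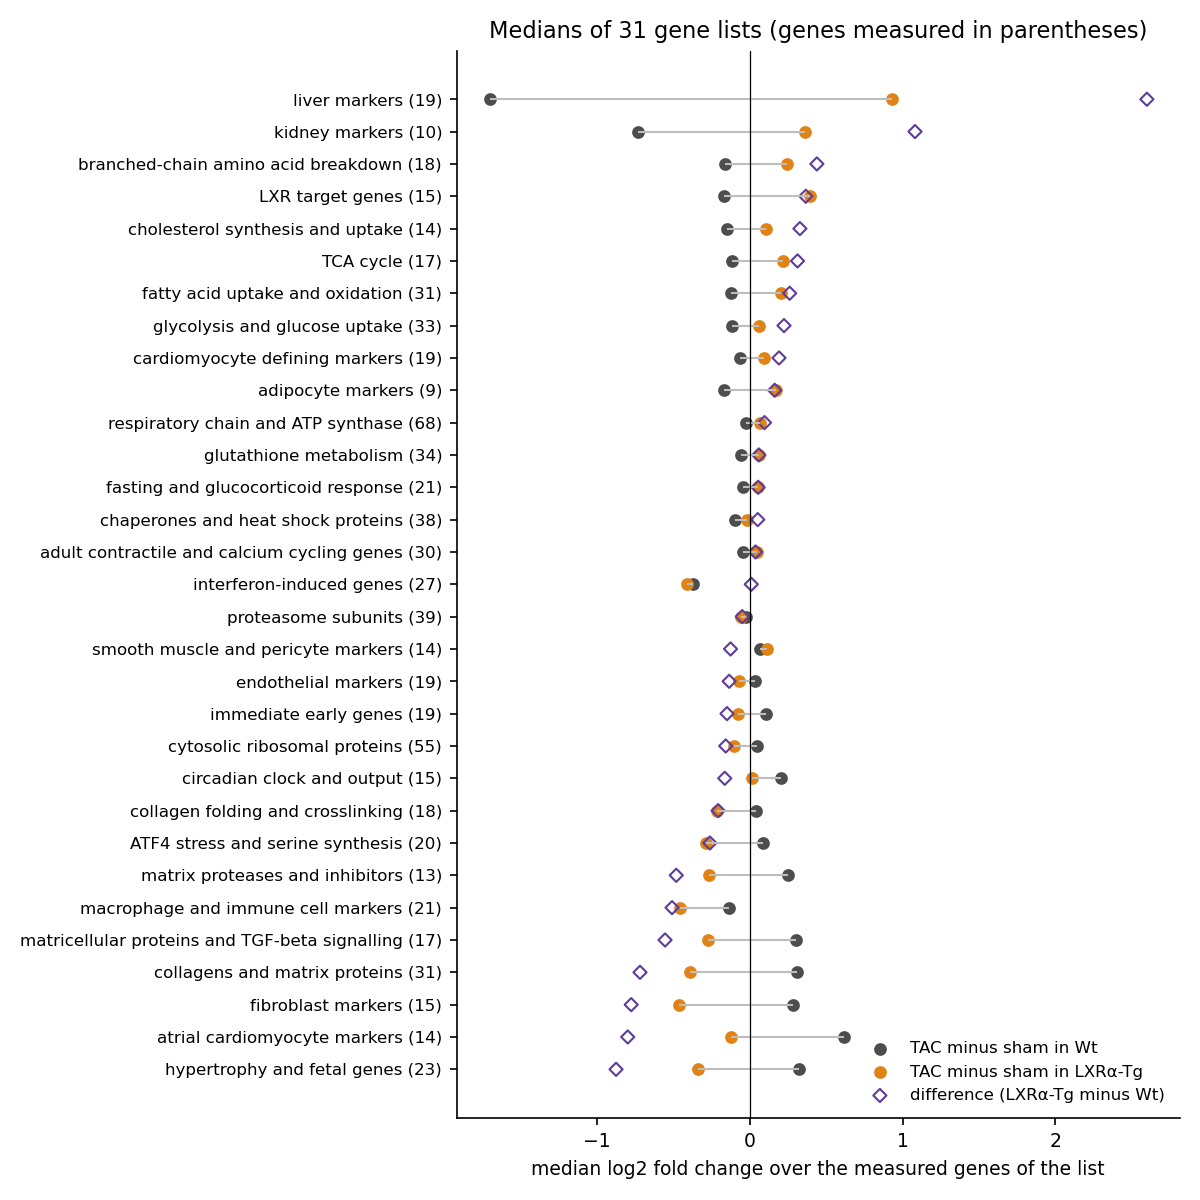
Median log2 fold change (x axis) over the measured genes of 31 lists (y axis) for TAC minus sham in Wt (dark points) and in LXRα-Tg (orange points), with the median difference as open diamonds. Hypertrophy, atrial, fibroblast and matrix lists lie lowest (−0.88 to −0.72), and liver markers lie highest at 2.60.

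For 27 interferon-induced genes the median TAC effect was −0.38 (Wt) and −0.41 (LXRα-Tg), and the median difference 0.01, which had the same sign in 12 of 27 settings and was 0.54 on slide 2 alone. Of the 27, 2 were more negative in LXRα-Tg before adjustment and 0 more positive, where 6.05% and 4.20% of all genes were. Ifit3, of the antiviral response, had 0.04 and −0.995, and Oasl2, of the same response, had −0.51 in Wt and −0.89 in LXRα-Tg. Cytosolic ribosomal proteins had a median effect of 0.05 (Wt) and −0.11 (LXRα-Tg) and a median difference of −0.16 over 55 genes, of which 2 were more negative before adjustment, proteasome subunits −0.05 over 39 and adult contractile and calcium cycling genes 0.04 over 30. Among the last, the calcium release channel Ryr2 had a difference of 0.84.

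Levels of markers of other cell types also varied between the groups, and their part in the results was not tested. In bulk RNA, fewer cells of a type and less RNA per cell cannot be told apart. Of 15 measured fibroblast markers, 7 were more negative in LXRα-Tg and 1, Meox1, was among the 60, and the median difference was −0.78. The summed signal of the list was 9592 to 13460 on the Wt sham arrays, 14970 to 17040 in Wt TAC, 16290 to 22520 in LXRα-Tg sham and 12600 to 16830 in LXRα-Tg TAC, and Ddr2 and S100a4 were detected on 0 arrays. Macrophage and immune markers had a median difference of −0.51 over 21 genes, with 3 more negative and Cx3cr1 among the 60. Their median TAC effect was below 0 in both genotypes, at −0.14 in Wt and −0.46 in LXRα-Tg, unlike that of the 60 genes. Their sum was 10220 to 12780, 12260 to 15060, 13780 to 27930 and 10360 to 15100 in the same order, and the pan-leukocyte marker Ptprc was detected on 0 arrays. Atrial markers, which include Comp of the 60 and Stard10 of the 21, had a median difference of −0.80 over 14 genes. The list was split, with 9 differences below 0 and 5 above, and with 3 genes more negative and 2 more positive before adjustment. With only probes detected on all arrays, the median difference of atrial markers was −0.19. Their sum was 12310 to 18620, 17780 to 41110, 36040 to 44810 and 26100 to 39550, and Bmp10 was detected on 0 arrays. Without the 5 arrays whose Nr1h3 went against the label, the median difference was −0.32 for fibroblast, −0.10 for macrophage and −0.33 for atrial markers. Plin4 is also on the adipocyte list, with a median difference of 0.16 over 9 genes. The adipocyte sum was 5272 to 6808 in Wt sham, 4873 to 7818 in Wt TAC, 3226 to 3946 in LXRα-Tg sham and 3411 to 6014 in LXRα-Tg TAC, and Fabp4 and Plin1 were detected on 0 arrays.

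Transcripts of liver and kidney also differed between arrays. All 19 measured liver markers had differences above 0, with a median of 2.60, 6 of them at an unadjusted limma p under 0.05, and the apolipoproteins Apoc3 and Apoa2 had 3.14 and 3.26. The summed liver signal reached 22530 on LXRα-Tg TAC replicate 1, then 21040 on replicate 3 of Wt sham and 10920 on replicate 4 of Wt TAC, against 1218 to 6778 on the other 10, while Alb was detected on 0 arrays. Kidney markers had a median difference of 1.08 over 10 genes, and of 0.06 without Wt sham replicate 3. On the arrays with the 2 highest liver sums the mean of the 21 genes was 0.33 and 0.21, within the range of the other arrays of their groups (0.29 to 0.43 in Wt sham and 0.09 to 0.25 in LXRα-Tg TAC). Without LXRα-Tg TAC replicate 1 the 21 genes had a median difference of 0.97, and without Wt sham replicate 3 of 0.88, against 0.94 with all arrays. The rule chose the 21 genes on these arrays, so that such closeness is in part built in. The part of liver transcripts in them was not tested.

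The 81 genes were also followed on each slide and without the doubtful arrays. Slide 1 held 6 arrays and slide 2 held 7, with every group on both. On slide 1 alone 76 of the 81 were measured, all with the difference in the same direction and 74 with both effects so. On slide 2 alone the counts were 79, 79 and 78. The median difference of the 60 was −1.15 on slide 1 and −1.17 on slide 2, against −1.21 together, and that of the 21 was 0.93 and 0.96, against 0.94. These arrays had chosen the genes, so that agreement in sign between them is in part built in. On slide 1 LXRα-Tg sham and LXRα-Tg TAC were 1 array each, and on slide 2 Wt sham was 1 array, so the tests there take the spread of the single arrays from the other groups, with 2 and 3 residual degrees of freedom. On slide 1 alone the rule found 18 and 47 genes, 6 and 3 of them among the 60 and the 21, and on slide 2 alone 33 and 10, with 13 and 2 shared. On slide 1 alone limma called 25 genes for the difference, all more positive in LXRα-Tg, with 7 liver markers and 0 opposite responders among them. The single LXRα-Tg TAC array there, replicate 1, had the highest liver sum, and the single LXRα-Tg sham array, replicate 1, is one whose Nr1h3 went against the label.

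Without the 5 arrays whose Nr1h3 went against the label, 79 of the 81 genes were measured and all 79 kept the signs of both effects. The arrays left had taken part in choosing the genes, so keeping the signs is in part built in. The median difference of the 60 was −1.23, and that of the 21 was 0.87. LXRα-Tg sham was then a single array, replicate 3, whose spread was taken from the remaining groups. The rule then found 39 and 43 genes, of which 16 and 2 were among the 60 and the 21, and limma called 0 genes for the difference. The 18 shared genes include Comp (difference −2.31), Cx3cr1 (−1.99) and Endod1 (−1.26). Without the 2 arrays lacking Eif2s3y the rule found 27 and 10, with 20 and 7 shared. The signs of both effects were then kept in 81 of 81, which is likewise in part built in. In 10 of the 60 and 2 of the 21 genes the rule held whichever single array was left out. These are Cd33, Cx3cr1, Dpysl3, Emp1, Endod1, Gask1b, Hebp1, Nkd2, Scml4 and Unc5b of the 60, and Gcdh and Ncoa1 of the 21, of which Cd33, Nkd2 and Scml4 were detected on 0 Wt sham arrays. By number of genes, leaving out Wt sham replicate 1 counted most, with 32 and 12 genes.

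Promoters were searched for 4 motifs in windows of 300 bases around RefSeq start sites, most of each window upstream (GRCm38.p6). Of the 60 genes 49 matched a window, and of the 21 genes 18. The MCAT core CATTCC, which TEAD factors bind, was read on both strands in 6 of 22 windows of the 21 genes (27.3%) and in 4 of 56 of the 60 genes (7.14%), against 14.7% of all promoters and 12.4% of those of the tested genes. The AP-1 motif TGANTCA was found in 4 of 56 windows of the 60 (7.14%) and 0 of 22 of the 21, against 7.81% of all and 5.31% of the tested genes' promoters. The TATA box TATAAA was found in 10.7% and 4.55%, against 13.6% and 7.66%. The LXR element, 2 copies of AGGTCA in tandem with 4 bases between them, was found in 0 windows of either group and in 0.0152% of all. A match is a description of the letters. The 4 windows printed here show both motifs in genes with the values above, in capitals, at chr3:79885680-79885979 (plus strand), chr6:135362681-135362980 (plus), chr16:18089141-18089440 (minus) and chr7:101316836-101317135 (plus). AP-1 is marked in Gask1b, at −234 and 23 from the start site, and in Emp1, at −145 and −25, and the MCAT core, read on the other strand as GGAATG, in Prodh, at −52, and Stard10, at −88.
Gask1b: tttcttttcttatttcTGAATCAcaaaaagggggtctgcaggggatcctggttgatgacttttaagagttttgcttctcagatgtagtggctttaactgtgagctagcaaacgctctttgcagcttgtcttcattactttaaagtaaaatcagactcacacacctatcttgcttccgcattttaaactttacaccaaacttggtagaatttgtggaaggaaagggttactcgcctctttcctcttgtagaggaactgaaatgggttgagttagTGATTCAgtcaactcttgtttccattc
Emp1: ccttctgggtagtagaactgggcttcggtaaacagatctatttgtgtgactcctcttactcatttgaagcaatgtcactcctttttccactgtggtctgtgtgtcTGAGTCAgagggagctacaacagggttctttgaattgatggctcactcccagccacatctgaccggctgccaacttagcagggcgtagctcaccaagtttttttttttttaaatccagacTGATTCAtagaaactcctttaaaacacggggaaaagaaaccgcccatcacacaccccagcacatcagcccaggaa
Prodh: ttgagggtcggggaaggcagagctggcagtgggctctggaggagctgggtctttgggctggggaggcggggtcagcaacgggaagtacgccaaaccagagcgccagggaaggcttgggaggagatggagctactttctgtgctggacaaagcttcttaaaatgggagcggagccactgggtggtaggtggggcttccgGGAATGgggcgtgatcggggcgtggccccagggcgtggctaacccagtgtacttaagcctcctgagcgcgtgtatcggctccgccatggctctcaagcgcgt
Stard10: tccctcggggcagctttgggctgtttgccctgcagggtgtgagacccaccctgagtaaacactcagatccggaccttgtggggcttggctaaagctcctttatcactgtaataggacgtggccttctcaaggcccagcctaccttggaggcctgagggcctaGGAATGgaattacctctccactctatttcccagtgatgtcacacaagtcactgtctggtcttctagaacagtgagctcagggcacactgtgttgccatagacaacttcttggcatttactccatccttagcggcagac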

How the data were processed

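LV RNA was measured on 13 Illumina MouseRef-8 arrays of 4 groups taken from the titles. The authors deposited, for each probe, a signal intensity with the background subtracted (GenomeStudio 2011.1, the submitters' processing notes) and a detection p-value. The authors also deposited processed intensity values, used as an alternative. Titles carry no replicate numbers, so replicates are numbered in the order of the records and nothing pairs arrays. The series record states 3 samples for each group, but 4 arrays carry the Wt TAC title and none was dropped.

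Per array, 9454 to 10392 of 25697 probes were detected at p under 0.01, and precision is limited by how many arrays there are. Of the probes, the platform annotation gave 23978 a single symbol and 1719 no symbol. Signals were normalized by limma's neqc function (limma 3.58.1, R 4.3.3) (quantile, offset 16, the negative controls being derived from detection p-values). The filter asked for detection on 3 or more arrays, which 11028 probes passed, and the brightest stood for its gene (7837 genes). The 4 group means were fitted by lmFit, moderated by eBayes on 9 residual degrees of freedom, adjusted after Benjamini and Hochberg over all genes and called under 0.05. Quantile normalization removes any change common to most genes. The fit was tested on simulated data.

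The members and the 31 gene lists were chosen with earlier results of these data known. The genes named are 18 fixed ones, of which Nr1h2, Srebf1 and Abca1 did not pass the filter on dim probes, the 12 largest opposite responders of each direction, the 10 genes of each direction with the smallest p of the difference, up to 4 members of each list and 2 genes on each side of the threshold. The other opposite responders were named after their values were seen. Alternatives were the background correction, the scaling between arrays, the authors' processed values, the detection filter, a slide term, the slides taken singly, leaving out arrays in turn, weighting of arrays, averaging the probes of a gene, an unmoderated linear model, a p under 0.01 and a t-test, which the methods state as paired and which was run unpaired, since nothing pairs the arrays. Leaving out the 5 and the 2 doubtful arrays and scaling by the medians of all probes were added after the data were seen. Figures were drawn in Python 3.11.15 with matplotlib 3.10.9.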

Additional observations from a re-analysis of the deposited data

Results flagged for a closer look

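In the Wt TAC group of 4 arrays, 6 of the 127 genes examined had 1 array farther from the others than Dixon's 95% critical value allows, which chance does in about 1 of 20 such groups. The ratio of the gap to the range was 0.938 for Nr1h3, where replicate 2 stood at 14.84 against at most 8.40. It was 0.872 for Sparc and 0.930 for Srpx2, a secreted protein with sushi repeats, where replicate 1 lay lowest at 11.04 and 7.49. Without that array the rule found 82 and 32 genes, of which 47 and 19 were among the 60 and the 21. The ratio was 0.940 for the proteasome subunit Psmd8, with replicate 1 lowest at 8.89. It was 0.851 for Rcan1 and 0.831 for Lrp11, where replicate 4 lay highest at 11.85 and 7.21. Without Wt TAC replicate 4 the rule found 38 and 24 genes.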

How the results depend on the processing

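Calls for the difference numbered 0 with all arrays and quantile normalization, 25 on slide 1 alone, 46 with the medians of all probes made equal and 0 to 2 with single arrays left out, and 0 in the other alternatives run. The 60 genes became 93 without a detection filter, 18 on slide 1 alone, 33 on slide 2 alone, 12 at a p under 0.01 in both genotypes, 26 by a t-test run unpaired (the methods name a paired one) and 0 by it after Benjamini-Hochberg, 39 without the 5 arrays with Nr1h3 against the label, 27 without the 2 arrays lacking Eif2s3y, 217 with the medians of all probes made equal and 32 to 82 with single arrays left out. The 21 genes became 48, 47, 10, 1, 23, 0, 43, 10, 0 and 12 to 32 in the same order. They became 32 with the medians of detected probes made equal, 33 with slide as a block, 35 with array weights and 41 with an unmoderated linear model, while the 60 became 43, 70, 79 and 57. The causes were not tested. The difference reversed for Ppargc1a (−0.0196) and Slc2a4 (−0.0924) on slide 1 alone, for Nr1h3 (−0.0081) and Slc2a1 (−0.16) without the 5 arrays, for Nppb (0.10) without the 2 arrays, and for Slc2a1 (−0.13) and Slc2a4 (−0.22) with the medians of all probes made equal. Of 3395 values of the 127 genes under these settings, 3347 kept their direction and their side of limma's adjusted threshold, 41 passed it and 7 reversed. With 0 calls in the main fit, keeping the side meant only staying uncalled, and no call could be lost. These counts do not bear on the rule for opposite responders. No paired analysis was possible because the titles carry no replicate numbers.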
